A study of Mus musculus with 8 samples.

Results

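The regulators of G protein signalling are described here in activated gut intraepithelial lymphocytes (IELs), a T cell population resident within the gut epithelium. The set was taken by gene symbol from the deposited count table and held 10 genes, 8 of the RGS family (Rgs1, Rgs2, Rgs3, Rgs10, Rgs14, Rgs16, Rgs18 and Rgs19) and the arrestin genes Arrb1 and Arrb2, of 25230 genes in all. All 10 passed the filter on low counts. In the Ex4 group, 4 C57BL/6J mice received anti-CD3 (35 µg), an antibody that activates T cells through their receptor complex, together with 10 nmol/kg of exendin-4, which activates the GLP-1 receptor. In the PBS group, 4 C57BL/6J mice received the same antibody with PBS, so that activation through CD3 was common to both groups. Both injections were intraperitoneal. IELs were collected after 3 hours by Percoll separation and sorting for CD45, a surface protein of all leukocytes, so the sort was not restricted to T cells. The sources used here give neither sex nor age of the mice.

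G protein-coupled receptors pass a signal by exchanging GDP for GTP on the alpha subunit of a heterotrimeric G protein. RGS proteins speed up GTP hydrolysis on alpha subunits, mainly those of the Gi and Gq classes, and so shorten the signal, whereas arrestins bind the phosphorylated receptor, uncouple it from its G protein and draw it into endocytosis. In T cells this machinery is known for limiting responses to chemokine receptors, which couple to Gi. The GLP-1 receptor couples mainly to Gs, which raises cAMP, and it recruits both beta-arrestins.

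Total gene counts ran from 13386889 to 31843413 in the 4 Ex4 libraries and from 18266449 to 25333644 in the 4 PBS libraries. All 9 T cell markers checked (among them Cd3e, Cd8a and Itgae) had counts in every library, and they summed to between 6552 and 7271 CPM (counts scaled to library size) in Ex4 libraries and between 6466 and 8041 CPM in PBS libraries. Markers of other cells were also present, with B cell markers summing to between 131 and 449.9 CPM in Ex4 libraries and between 163 and 483 CPM in PBS libraries, and epithelial markers to between 325 and 706 CPM in Ex4 libraries and between 572 and 1277 CPM in PBS libraries. PBS 1 stood apart in mast cell markers, at 178 CPM against at most 63.7 CPM in every other library, and in macrophage, monocyte and dendritic cell markers, at 204 CPM against at most 137 CPM. Of the 7 mast cell markers, 3 (Ms4a2, Fcer1a and Tpsb2) averaged under 1 CPM, and only 4 had counts in every library. Among the 10 genes PBS 1 was the highest of the 8 libraries for 5 (Rgs3, Rgs14, Rgs16, Rgs19 and Arrb2) and the lowest for 2 (Rgs1 and Rgs10). The part of mast cells, macrophages and B cells in the values was not tested. An epithelial marker score was fitted as a covariate in edgeR, which called 0 of the 10 genes and 1 of the 14691 genes tested. It moved the log2 fold changes of Arrb1 and Rgs2 towards 0, to 0.14 and -0.12, beside 0.38 and -0.22 without it. Away from 0 moved Rgs10 (0.22 to 0.40), Rgs1 (0.24 to 0.35), Rgs3 (-0.61 to -0.79), Rgs14 (-0.63 to -0.81), Arrb2 (-0.34 to -0.46) and Rgs19 (-0.26 to -0.29). Rgs16 went from 0.04 to -0.02 and Rgs18 from -0.04 to 0.00. As the libraries are from sorted bulk cells, fewer cells that express a gene and less RNA of it per cell cannot be told apart.

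Levels were compared between genes as RPKM, the TMM-scaled CPM divided by the gene's length in kilobases, with the union of all annotated exons as length. Rgs1, which encodes a Gi- and Gq-directed regulator that is abundant in T cells resident in the gut, had by far the highest level of the 10 genes. It averaged 816 ± 173 RPKM in Ex4 libraries and 690.0 ± 182 RPKM in PBS libraries (SD, n = 4 each). Its mean over the 8 libraries, 753 RPKM, ranked 28 of 14421 genes with a known length. In share of all counts, Rgs1 took 0.559 ± 0.0815% in Ex4 libraries and 0.477 ± 0.105% in PBS libraries (SD, n = 4 each), and only 6 genes had a higher mean CPM.

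The other genes fell into a middle and a low tier. Rgs19, which encodes a regulator of Gi-class subunits, averaged 53.3 ± 11.0 RPKM in Ex4 libraries and 63.8 ± 6.33 RPKM in PBS libraries. Rgs2, which encodes a regulator with preference for Gq, averaged 27.4 ± 4.37 RPKM in Ex4 libraries and 31.9 ± 2.44 RPKM in PBS libraries. Arrb2, which encodes beta-arrestin 2, averaged 18.0 ± 2.62 RPKM in Ex4 libraries and 22.7 ± 8.22 RPKM in PBS libraries (SD, n = 4 each throughout). Over the 8 libraries Rgs1 did not overlap Rgs19 and Rgs19 did not overlap Rgs2, while Rgs2 and Arrb2 overlapped, with Rgs2 higher in 7 of 8 libraries. Below a gap came the low tier, in which no library exceeded 7.17 RPKM and the lowest Arrb2 value was 15.4 RPKM. In it Rgs16, Rgs14, Rgs10 and Rgs3 had means over the 8 libraries of 3.67, 3.51, 3.00 and 2.54 RPKM, and each neighbouring pair overlapped. Arrb1, which encodes beta-arrestin 1, had a mean of 1.17 RPKM and Rgs18 of 0.711 RPKM, and these also overlapped.

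**Figure D1:**
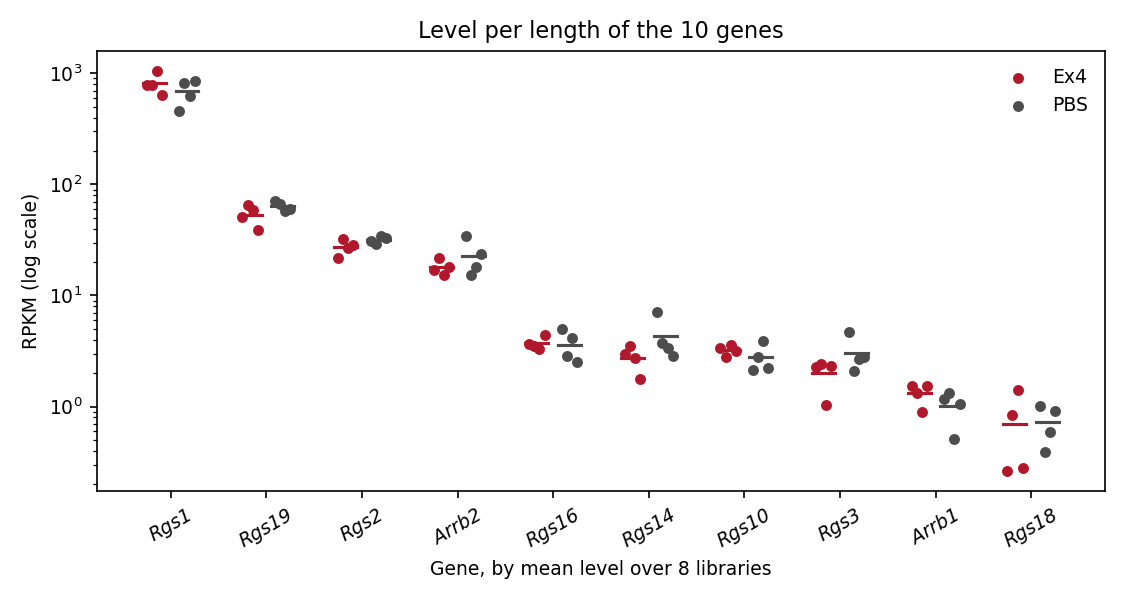
Level of each gene in RPKM (vertical log axis) in every library, with Ex4 at the left and PBS at the right of each gene, points for single libraries and lines for the group means (n = 4 each). Rgs1 lies between 463 and 1056 RPKM in all 8 libraries, Rgs19, Rgs2 and Arrb2 lie between 15.4 and 71.1 RPKM, and the other 6 genes lie at or under 7.17 RPKM.

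The order within the low tier depended on the length used. With the longest protein-coding transcript in place of the exon union, a choice made after the data had been seen, 7 of the 10 genes kept their place, Rgs14 (6.32 RPKM), Rgs3 (5.83 RPKM) and Rgs10 (5.82 RPKM) stood above Rgs16 (3.67 RPKM). Rgs1, with 753 RPKM by the exon union, had 895 RPKM by its longest transcript and 1362 RPKM by its longest protein-coding transcript. For Rgs1 the exon union of 6947 bases equals the whole gene span, so that positions intronic in other transcripts count towards its length.

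The genes lie on 6 chromosomes in GRCm38 (also called mm10), and 3 of them are close neighbours. On the minus strand of chromosome 1 are Rgs2 (ENSMUSG00000026360, 143999338 to 144004161), Rgs1 (ENSMUSG00000026358, 144242296 to 144249242) and Rgs18 (ENSMUSG00000026357, 144752683 to 144775435). Rgs13 lies between Rgs2 and Rgs1, and Rgs21 between Rgs1 and Rgs18. Levels within this cluster differed widely: Rgs1 was at 753 RPKM, Rgs2 at 29.7 RPKM, Rgs13 at 4.07 RPKM and Rgs18 at 0.711 RPKM (means over 8 libraries), while Rgs21 had 0 counts in 176717993 over the 8 libraries. For Rgs21 a count of 0 allows up to 0.0170 CPM, a limit that covers counting error only. Rgs16 (ENSMUSG00000026475) lies further along chromosome 1, from 153740349 to 153745468 on the plus strand, 40 kb from Rgs8. The remaining genes are Rgs19 (ENSMUSG00000002458) on chromosome 2 (181688419 to 181693977), Rgs3 (ENSMUSG00000059810) on chromosome 4 (62559847 to 62704001), Rgs10 (ENSMUSG00000030844) on chromosome 7 (128373621 to 128418758), Rgs14 (ENSMUSG00000052087) on chromosome 13 (55369732 to 55384687), Arrb1 (ENSMUSG00000018909) on chromosome 7 (99535466 to 99606771) and Arrb2 (ENSMUSG00000060216) on chromosome 11 (70432635 to 70440828). Each value covers the whole gene, exons of all transcripts included. Exons of Rgs16 overlap by up to 236 bases those of Gm28513 on the opposite strand, and the sources used here do not say whether counting used strand, so that reads from that stretch cannot be told apart. Exons of Arrb2 hold the microRNA gene Mir7115, 64 bases on the same strand.

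The comparison of Ex4 with PBS asked how exendin-4 altered these regulators and desensitisers in cells activated through CD3. None of the 10 genes passed the edgeR quasi-likelihood test, at a threshold of 0.05 after Benjamini-Hochberg adjustment across the 14691 genes tested, where 0.0136% of all genes tested passed. At an unadjusted edgeR p under 0.05 the count was also 0 of 10, against 7.61% of all genes tested. DESeq2 called 0 of 10, against 0.565% of all genes tested, but gave no adjusted p for Rgs10 and Rgs18. With limma-voom 0 of 10 were called, against 1 of the 14691 genes tested. Unadjusted p-values under 0.05 were found for 2 of the 10 in DESeq2 (Rgs3 and Rgs14), against 8.73% of all genes tested, and for 1 of the 10 in limma-voom (Rgs3), against 8.15%. For all 10 genes the groups overlapped, whereas they did not overlap for 4.95% of all genes tested. The fold changes were above 0 for 4 genes and below 0 for 6, with a median log2 fold change of -0.13 beside 0.02 for all genes tested.

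**Figure D2:**
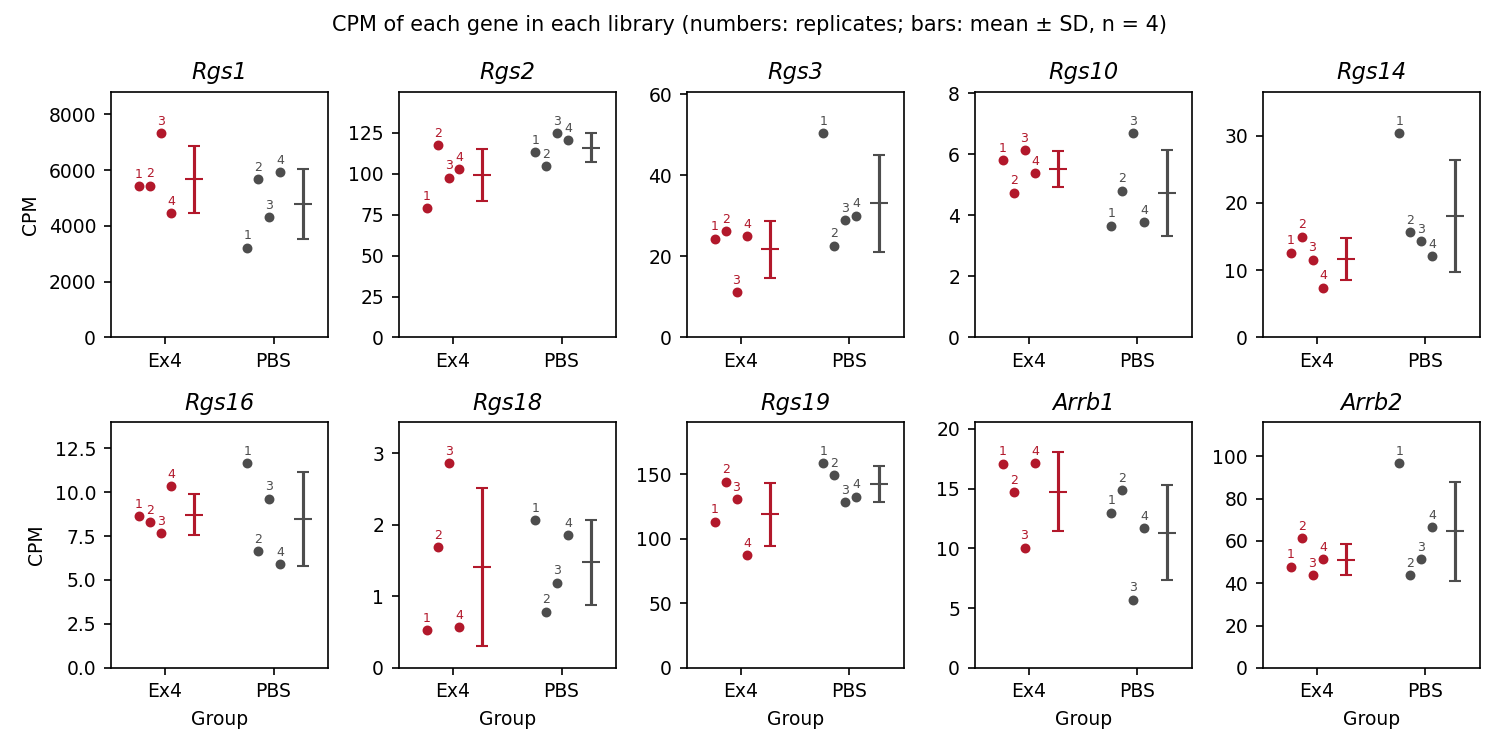
CPM of each gene (vertical axis, from 0, on its own scale) in every library, with Ex4 at the left and PBS at the right, replicate numbers at the points and bars for mean ± SD (n = 4 each). In every panel the groups overlap, and PBS 1 is the highest point for Rgs3 (50.5 CPM), Rgs14 (30.4 CPM) and Arrb2 (96.8 CPM) and the lowest for Rgs1 (3218 CPM).

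Rgs1 was at 5424, 5447, 7338 and 4464 CPM in Ex4 libraries 1 to 4, and at 3218, 5689.8, 4326 and 5941 CPM in PBS libraries 1 to 4. Ex4 3 was the highest and PBS 1 the lowest, and the other 6 libraries of both groups were interspersed. Its log2 fold change was 0.24 (SE 0.20, edgeR adjusted p = 0.848), and the 95% interval of the fold ran from 0.874 to 1.60. Without Ex4 3 the log2 fold change was 0.08, and without PBS 1 it was also 0.08. These values rest on 63081 to 212736 counts per library, far more than for the other 9 genes.

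Rgs19 was at 113, 144, 131 and 87.5 CPM in Ex4 libraries 1 to 4, and at 159, 149.6, 129 and 133 CPM in PBS libraries 1 to 4. Ex4 4 and Ex4 1 lay under every PBS library, and the other Ex4 libraries lay within the PBS range. Its log2 fold change was -0.26 (SE 0.15, edgeR adjusted p = 0.738), with a 95% interval of the fold from 0.665 to 1.05, and with 1 library left out it ran from -0.39 (without Ex4 2) to -0.15 (without Ex4 4).

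Rgs2 was at 79.1, 117, 97.8 and 103 CPM in Ex4 libraries 1 to 4, and at 113, 105, 125 and 120.4 CPM in PBS libraries 1 to 4. In 3 of 4 Ex4 libraries it was under every PBS library, and Ex4 2 lay within the PBS range. For Rgs2 the log2 fold change was -0.22 (SE 0.14, edgeR adjusted p = 0.755), with a 95% interval of the fold from 0.699 to 1.05. With 1 library left out it ran from -0.33 (without Ex4 2) to -0.14 (without Ex4 1). Rgs2 and Rgs19 had the narrowest intervals of the 10 genes on the log2 scale.

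Rgs2 is known as a gene that cAMP can induce in several cell types, so its promoter was read for the cAMP response element. Promoter windows of RefSeq (GRCm38.p6), from 250 bases before to 50 bases after a start site, were held for 5 of the 10 genes (Rgs2, Rgs3, Rgs10, Rgs16 and Rgs19), 8 windows in all. The full element TGACGTCA, searched on both strands, was in 0 of these 8 windows and in 1.79% of 32851 windows of all genes. Its core TGACG, which the full element also contains, was in 1 of the 8, that of Rgs2, and in 20.8% of all windows. The window of Rgs2, at chr1:144004100-144004399 on the minus strand, is printed because it alone among the 8 held the core, which is in capitals on either strand (at -185 and -67 from the start site).
Rgs2: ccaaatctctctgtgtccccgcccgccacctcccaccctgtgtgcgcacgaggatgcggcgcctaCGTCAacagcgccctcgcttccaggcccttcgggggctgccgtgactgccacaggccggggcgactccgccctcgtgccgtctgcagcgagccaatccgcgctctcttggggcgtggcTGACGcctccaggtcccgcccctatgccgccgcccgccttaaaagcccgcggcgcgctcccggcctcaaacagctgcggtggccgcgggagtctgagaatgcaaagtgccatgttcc
The AP-1 motif TGANTCA, the binding motif of an activation-induced factor, was in 0 of the 8 windows and in 7.81% of all windows. The NFAT motif GGAAAA was in 1 of the 8, a window of Rgs19, and in 23.4% of all windows. A match describes these letters and does not show that a factor binds there.

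Rgs3 and Rgs14 had the lowest log2 fold changes of the 10 genes. Rgs3, which encodes a Gi- and Gq-directed regulator, was at 24.4, 26.3, 11.1 and 25.1 CPM in Ex4 libraries 1 to 4, and at 50.5, 22.7, 29.0 and 30.1 CPM in PBS libraries 1 to 4. Ex4 3 was low and PBS 1 high, with the other 6 libraries close together. The log2 fold change was -0.61 (SE 0.29, edgeR adjusted p = 0.659), with a 95% interval from -1.23 to 0.01, and it was -0.34 without PBS 1 and -0.42 without Ex4 3. Rgs14, which encodes a scaffold that binds Gi subunits and Ras family GTPases, was at 12.6, 15.0, 11.6 and 7.43 CPM in Ex4 libraries 1 to 4, and at 30.4, 15.7, 14.3 and 12.1 CPM in PBS libraries 1 to 4. PBS 1 stood far above every other library and Ex4 4 was the lowest, and the other 6 libraries lay close together. For Rgs14 the log2 fold change was -0.63 (SE 0.30, edgeR adjusted p = 0.658), with a 95% interval from -1.27 to 0.00, and it was -0.27 without PBS 1.

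Rgs16, which encodes a regulator that T cells induce on activation, was at 8.64, 8.28, 7.66 and 10.3 CPM in Ex4 libraries 1 to 4, and at 11.6, 6.64, 9.63 and 5.91 CPM in PBS libraries 1 to 4. All Ex4 libraries lay within the PBS range. For Rgs16 the log2 fold change was 0.04 (SE 0.28, edgeR adjusted p = 0.984), with a 95% interval of the fold from 0.681 to 1.56, and its sign depended on the libraries used, from -0.12 without PBS 4 to 0.23 without PBS 1. Rgs10, which encodes a small Gi-directed regulator, was at 5.80, 4.74, 6.14 and 5.38 CPM in Ex4 libraries 1 to 4, and at 3.66, 4.81, 6.70 and 3.77 CPM in PBS libraries 1 to 4. Its Ex4 libraries lay close together within the wider PBS range (SD 0.604 CPM in Ex4 libraries and 1.41 CPM in PBS libraries). For Rgs10 the log2 fold change was 0.22 (SE 0.33, edgeR adjusted p = 0.929), and it was 0.11 without PBS 1 and 0.40 without PBS 3.

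Rgs18, which encodes a regulator known from platelets and megakaryocytes, was the lowest of the 10 genes, with 8 to 83 counts per library. It was at 0.532, 1.69, 2.86 and 0.566 CPM in Ex4 libraries 1 to 4, and at 2.07, 0.788, 1.19 and 1.86 CPM in PBS libraries 1 to 4. The lowest and the highest values were both in Ex4 libraries. Its log2 fold change was -0.04 (SE 0.65, edgeR adjusted p = 0.993), with a 95% interval of the fold from 0.368 to 2.55, the widest of the 10 genes. The sign turned with the libraries used, from -0.66 without Ex4 3 to 0.21 without Ex4 1. Platelet and megakaryocyte markers summed to between 12.5 and 20.5 CPM in Ex4 libraries and between 8.38 and 18.7 CPM in PBS libraries. Of these 8 markers, 5 (Ppbp, Gp9, Gp1bb, Gp6 and Treml1) averaged under 1 CPM, while Pf4, Itga2b and Gp1ba did not. The part of platelets and megakaryocytes in the Rgs18 values was not tested.

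The arrestin genes had fold changes of opposite sign. Arrb1 was at 17.1, 14.7, 10.1 and 17.1 CPM in Ex4 libraries 1 to 4, and at 13.0, 14.9, 5.71 and 11.7 CPM in PBS libraries 1 to 4. PBS 3 was the lowest. It is also the library with the most epithelial marker counts (1277 CPM), and a link between these was not tested. The log2 fold change of Arrb1 was 0.38 (SE 0.29, edgeR adjusted p = 0.819), with a 95% interval of the fold from 0.850 to 1.99, and it was 0.12 without PBS 3 and 0.14 with the epithelial score as a covariate (edgeR adjusted p = 0.938). Arrb2 was at 47.9, 61.3, 43.9 and 51.5 CPM in Ex4 libraries 1 to 4, and at 96.8, 43.9, 51.3 and 66.7 CPM in PBS libraries 1 to 4. PBS 1 was the highest, and without it the log2 fold change of -0.34 (SE 0.21, edgeR adjusted p = 0.769) became -0.09. Per length, Arrb2 exceeded Arrb1 by 14.1 ± 3.13 times in Ex4 libraries and by 24.6 ± 10.2 times in PBS libraries (SD, n = 4 each), and the ranges, 11.0 to 17.1 in Ex4 libraries and 11.6 to 35.3 in PBS libraries, overlapped.

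**Figure D3:**
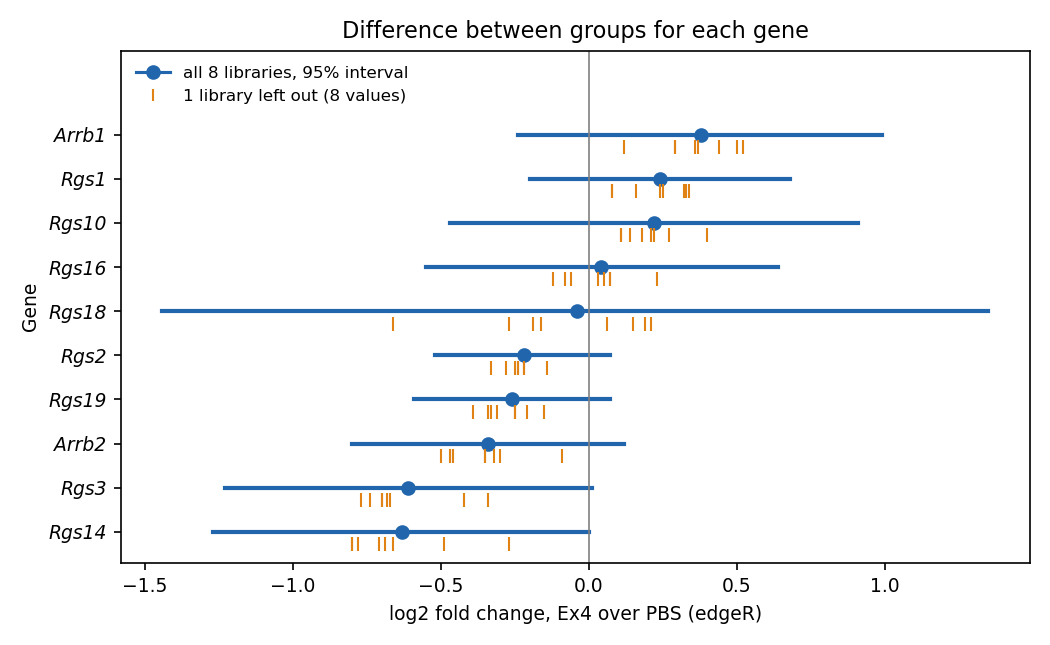
Log2 fold change of each gene, Ex4 over PBS (horizontal axis), from the edgeR fit of all 8 libraries with its 95% interval (blue), and from the 8 fits that leave out 1 library (orange ticks). Every interval reaches 0, that of Rgs18 is the widest (-1.44 to 1.35), and the ticks of Rgs14 reach -0.27 and those of Arrb2 -0.09 when PBS 1 is left out.

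Spread within groups differed between the genes. The biological coefficient of variation in edgeR, the relative spread between libraries beyond counting error, was 15.3% for Rgs2 and 16.8% for Rgs19, beside 17.1% and 17.0% for genes of their abundance. It was 20.7% for Rgs1, 22.1% for Arrb2 and 29.0% for Rgs3, beside 17.8%, 17.9% and 21.4% for genes of their abundance. For Rgs18 it was 61.5%, beside 62.6%. The fit draws each gene's value towards that of genes of its abundance, so closeness between them is partly built in.

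The genes closest in profile were found from the root mean square difference of gene-centred log2 CPM over the 8 libraries, among 8665 genes. For Rgs1 they were Hilpda (0.0747), D16Ertd472e (0.0806) and Bhlhe40 (0.101), where the median gene had 0.38. Closest to Rgs2 were Bst2 (0.0732), Mrps12 (0.0775) and Timm22 (0.0933), against a median of 0.31, and closest to Rgs16 were Ccl17 (0.120), Pwwp3a (0.121) and Prodh (0.123), against a median of 0.41. As the smallest of 8665 differences, these lie under the median by the way they were picked. The likeness is a description of these 8 libraries, and nothing about shared function was tested.

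The rest of the pathway was read from 7 lists with 93 tested genes. By edgeR, 0 of the 93 were called in either direction after adjustment over all genes, and 9 had an unadjusted edgeR p under 0.05, 6 higher and 3 lower, a share near the 7.61% of all genes tested. The groups did not overlap for 6 of the 93, likewise near the 4.95% of all genes tested. DESeq2 called 1 of the 93, P2ry14, where it called 0.565% of all genes tested, and limma-voom called 0 of the 93. Over all genes tested, 7767 log2 fold changes were above 0 and 6924 below 0, with a median of 0.02. Of the other genes with an RGS domain, 15 of 22 were tested, with 12 fold changes above 0, 3 below 0 and a median of 0.25. The smallest p-values among them belonged to Snx14, a sorting nexin gene, at 22.0 ± 3.97 CPM in Ex4 libraries and 15.5 ± 2.11 CPM in PBS libraries (SD, n = 4 each, edgeR adjusted p = 0.543), and Arhgef12, which encodes a guanine nucleotide exchange factor activated by G12 and G13 subunits, at 12.9 ± 3.20 CPM in Ex4 libraries and 8.11 ± 2.27 CPM in PBS libraries (edgeR adjusted p = 0.566). Rgs9, chosen after its values were seen, had a mean of 4.84 RPKM over the 8 libraries. That is above the highest mean in the low tier (Rgs16, 3.67 RPKM) and under its highest single library (Rgs14, 7.17 RPKM).

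The alpha subunits differed widely in level, from 124 RPKM for Gnai2 to 1 count over the 8 libraries for Gnai1, and edgeR called 0 of the 12 tested. Gnai2, the main Gi alpha subunit of lymphocytes, was at 493 ± 25.6 CPM in Ex4 libraries and 445 ± 72.9 CPM in PBS libraries (log2 fold change 0.15, edgeR adjusted p = 0.868, and 0.05 without PBS 1). Gnas, the Gs alpha subunit through which the GLP-1 receptor raises cAMP, was at 923 ± 44.8 CPM in Ex4 libraries and 946 ± 92.0 CPM in PBS libraries (-0.04, edgeR adjusted p = 0.973). Gna13 was at 521 ± 82.8 CPM in Ex4 libraries and 392 ± 123 CPM in PBS libraries (SD, n = 4 each, 0.41, edgeR adjusted p = 0.686, and 0.22 without PBS 1). The 12 tested alpha subunits had a median of -0.01, with 6 above 0 and 6 below 0, and the 13 tested beta and gamma subunits a median of 0.08. Gnat1, the alpha subunit of rod photoreceptors, had few counts, at 4.18 ± 1.89 CPM in Ex4 libraries and 2.03 ± 1.03 CPM in PBS libraries. Gng10 had no overlap between the groups, at 44.0 ± 1.98 CPM in Ex4 libraries and 35.4 ± 4.01 CPM in PBS libraries (0.31, edgeR adjusted p = 0.624), and Gng12 had a log2 fold change of -0.48.

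**Figure D4:**
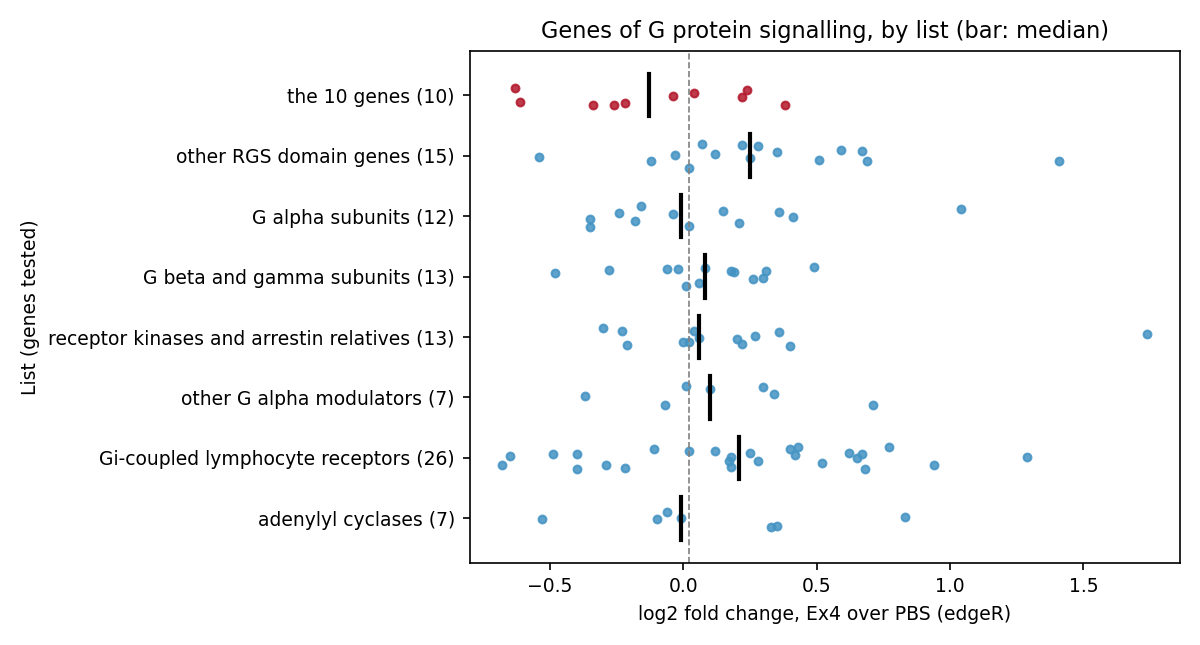
Log2 fold change, Ex4 over PBS (horizontal axis), of every tested gene in each list of G protein signalling (rows, with the number tested), with a black bar for the median of the list and a dashed line for the median of all genes tested (0.02). The 10 genes lie between -0.63 and 0.38, with a median of -0.13.

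Kinases that prepare receptors for arrestins were measured beside their partners. Grk6, the most abundant of them in CPM, was at 812 ± 159.8 CPM in Ex4 libraries and 616 ± 164 CPM in PBS libraries (log2 fold change 0.40, edgeR adjusted p = 0.670, and 0.26 without PBS 3). Grk2 was at 52.3 ± 6.25 CPM in Ex4 libraries and 52.5 ± 8.29 CPM in PBS libraries (SD, n = 4 each, edgeR adjusted p = 0.998). Sag, the arrestin of photoreceptors, was at 2.24 ± 0.314 CPM in Ex4 libraries and 0.665 ± 0.288 CPM in PBS libraries without overlap (1.74, edgeR adjusted p = 0.433). It had few counts, at most 57 in any library. That list had 13 tested genes and a median of 0.06. Among 7 other modulators of alpha subunits (median 0.10), Gpsm2 and Ric8b had the smallest p-values, with log2 fold changes of 0.71 and 0.30. Without PBS 1 these were 0.47 and 0.10, and Gpsm2 had 1.25 without PBS 3. Among 7 adenylyl cyclases (median -0.01), Adcy4 had 0.83 (edgeR adjusted p = 0.733) and Adcy7 had -0.53 (edgeR adjusted p = 0.738). Adcy4 was low and its groups overlapped, at 4.31 ± 1.93 CPM in Ex4 libraries and 2.43 ± 1.01 CPM in PBS libraries. With 1 library left out, Adcy4 ran from 0.56 (without PBS 2) to 1.09 (without Ex4 3). The Adcy7 value rests on PBS 1 (58.8 CPM, against 17.3 to 27.2 CPM in the other PBS libraries), and it was -0.06 without that library.

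Of the Gi-coupled receptors of lymphocytes, whose signals RGS proteins shorten, 26 of 30 were tested, with 18 fold changes above 0, 8 below 0 and a median of 0.21. Over all genes tested 7767 were above 0 and 6924 below 0, with a median of 0.02. P2ry14, a receptor for UDP-sugars, was at 25.0 ± 1.15 CPM in Ex4 libraries and 15.6 ± 2.59 CPM in PBS libraries without overlap. In edgeR its log2 fold change was 0.68 (SE 0.18, adjusted p = 0.335), and in DESeq2 it was 0.67 (adjusted p = 0.0449), the only one of the 93 genes that DESeq2 called. Ccr9, the chemokine receptor that draws lymphocytes to the small intestine, was at 37.1 ± 3.73 CPM in Ex4 libraries and 59.4 ± 19.6 CPM in PBS libraries without overlap (-0.68, edgeR adjusted p = 0.400, and -0.43 without PBS 1).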

How the data were processed

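Gene counts of sorted gut IELs from 8 mice were used, each of the 8 deposited columns being matched to a mouse by its description, with 0 per-sample columns left unused. TRIzol extraction and a strand-specific TruSeq mRNA kit were used, per the labels' protocols, and reads were paired and 200 bp long per the series' design text. STAR 2.7.9a, DESeq2 and mm10 are named in the submitters' processing notes with no step assigned to them. Counting tool and gene models were not given in the sources used here. For each gene symbol the authors deposited raw, whole-number counts.

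The Ex4 effect was tested on the counts by edgeR 4.0.16 under R 4.3.3 (filterByExpr, TMM scaling, robust dispersions, quasi-likelihood F test of Ex4 against PBS, Benjamini-Hochberg over 14691 genes), and the procedure was tested on simulated data. SEs and 95% intervals came from the F statistic. Alternatives were DESeq2 1.42.0, limma-voom (limma 3.58.1), other scalings, filters and covariates, and left-out libraries. Gene lengths and coordinates came from GENCODE M21 (GRCm38). Replicates are labelled as separate mice, and each pair within a group differed by more than sampling noise (mean chi-square per gene from 22.1 to 82.7). Named genes were the 10 members, the 2 genes with the smallest p in each list, Gnai2, Gnas and Grk2, and the closest profiles of Rgs1, Rgs2 and Rgs16. Rgs9, Rgs13, Rgs21, Gnai1, Cxcr6 and Gpr18 were named after their values were seen. The members, lists and alternatives were chosen with earlier results of these data known, and the protein-coding transcript length after seeing the data. The 95% intervals are for single genes and are not adjusted for their number. Annotation and figures were made with Python 3.11.15, pandas 2.3.3 and matplotlib 3.10.9.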

Additional observations from a re-analysis of the deposited data

Results flagged for a closer look

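Within each set of 4 libraries, Dixon's ratio was taken for the extreme values of the named genes, total counts and marker sums: the distance of the extreme library to the next one, as a share of the span from lowest to highest. It passed the 95% limit in 5 of 70 sets, and chance passes about 1 in 20. Among the 10 genes this happened once: Rgs3 was low in Ex4 3, at a log2 CPM of 3.49 against 4.61 for its nearest Ex4 neighbour. Ccr9 was high in Ex4 2 (log2 CPM 5.42 against 5.16) and in PBS 1 (6.47 against 5.69). The log2 summed CPM of epithelial markers was low in Ex4 1 (8.35 against 9.29), and that of mast cell markers was high in PBS 1 (7.48 against 5.88). No explanation of these values was tested.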

How the results depend on the processing

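The count of 0 called among the 10 genes held under all 21 alternatives, of which the omission of the 10 most abundant genes also omitted Rgs1. The lowest adjusted p of any of the 10 over the alternatives was 0.375, for Rgs19 with log2 total counts as a covariate, and DESeq2 gave none for Rgs10 and Rgs18. The sign held throughout for 8 genes. Rgs16 turned to -0.06 without Ex4 4, -0.08 without PBS 2, -0.12 without PBS 4, -0.01 without PBS 2 and Ex4 3 together and -0.02 with the epithelial score as a covariate, and was up to 0.23 without PBS 1. Rgs18 turned to 0.21 without Ex4 1, 0.19 without Ex4 4, 0.15 without PBS 1, 0.06 without PBS 4 and 0.00 with the epithelial score, and was -0.66 without Ex4 3, -0.86 without PBS 2 and Ex4 3 together and -0.55 with total counts as a covariate. The cause was not tested. Over all genes, where edgeR called 2 higher and 0 lower, DESeq2 called 83 (48 higher, 35 lower), limma-voom 1, the edgeR fit with no filter 8 (5 higher, 3 lower), that without robust dispersions 1, that with the epithelial score 1, and that with total counts as a covariate 1 higher and 1 lower. With 1 library left out it called from 1 to 14, from 1 to 10 higher and from 0 to 4 lower, the most without PBS 2. Of the 93 pathway genes DESeq2 called 1. The labels do not say that a replicate number marks a shared litter or day. Correlations of same-numbered deviations were 0.09, -0.03, -0.24 and 0.14, which with 4 libraries per group cannot exclude a pairing. With a replicate block 1 gene was called over all genes and 0 of the 10. Of the 10 genes Rgs18 had the fewest counts, from 8 to 83 per library.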

Other observations

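Most of the 30 Gi-coupled receptors listed were low per length, and Cxcr6 and Gpr18 stood far above the others, which reached at most 39.8 RPKM. Cxcr6, a chemokine receptor of tissue-resident lymphocytes, had a mean of 686 RPKM over the 8 libraries and Gpr18, a receptor known for the accumulation of IELs in mice, of 624 RPKM, beside 753 RPKM for Rgs1. Their CPM averaged 1274 in Ex4 libraries and 1376 in PBS libraries for Cxcr6, and 994 in Ex4 libraries and 875 in PBS libraries for Gpr18. Both were chosen after their values were seen, and neither passed the edgeR test (log2 fold changes -0.11 and 0.18).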
